A study of Homo sapiens with 6 samples.

Results

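The matrix metalloproteases (MMPs), the ADAMTS proteases and their tissue inhibitors (TIMPs) were followed in A2780, a human ovarian cancer cell line, with and without recombinant CRMP2 protein. The genes were picked out by symbol: protein-coding rows named MMP or ADAMTS followed by a number, and TIMP1 to TIMP4. Earlier results of these data were known when this set was chosen. This gave 45 of the 44591 genes in the deposited tables, of which 22 were MMP, 19 ADAMTS and 4 TIMP genes. Messenger RNA was sequenced from 6 samples of the same wild-type line, all kept in DMEM with fetal bovine serum. The untreated group held 3 samples grown for 48 h, and the r-CRMP2 group held 3 samples given human recombinant CRMP2 at 40 ng/ml for 48 h. The comparison asks which genes of this proteolytic system differ in level after exposure to CRMP2, a protein that the study followed as a product of fibroblasts in ovarian tumours. The labels do not say whether the 3 samples of a group were grown apart, so the p-values measure the spread between these samples, which may be technical.

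MMPs are zinc-dependent endopeptidases that cut collagens, gelatin, laminins, fibronectin and many cell-surface proteins, and most are made as inactive precursors. ADAMTS proteases are secreted relatives that carry thrombospondin repeats. Several of them cut the large proteoglycans aggrecan and versican, and others process procollagen or von Willebrand factor. The 4 TIMPs bind the active site of MMPs with broad overlap, and TIMP3, which is held in the matrix, also inhibits several ADAMTS and ADAM proteases.

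The libraries held between 21888530 and 25711353 counts. Normalised read counts are given as CPM, the count scaled to a fixed library total, after TMM scaling, which corrects each total for the make-up of its library. The TMM factors lay between 1.096 and 1.123 in the untreated group and between 0.878 and 0.922 in the r-CRMP2 group, so the choice of scaling matters for every fold change below. Over the 16222 genes tested, the log2 fold change (r-CRMP2 minus untreated) had a median of -0.03 under TMM but of -0.34 where library size alone was used, a shift of -0.31. The line carried KRT8 and KRT18, keratins of simple epithelia, at 1266 and 1251 CPM in the untreated group, but CDH1 (E-cadherin) and WT1 were under 1 CPM in every library. EPCAM, KRT19, PAX8 and MUC16 had 4.44, 1.40, 4.06 and 42.7 CPM in the untreated group. The summed level of these 8 epithelial markers was 3323 to 3431 TPM in the untreated group and 2821 to 3073 TPM in the r-CRMP2 group. Of the 6 tested, 1 was higher (KRT18) and 1 lower (MUC16) under TMM. Of 6 leukocyte markers, 5 were under 1 CPM in every library, among them PTPRC. The summed level of the 6 was 28.7 to 33.9 TPM in the untreated group and 77.7 to 78.8 TPM in the r-CRMP2 group. Nearly all of this sum was CD68, at 33.2, 29.7 and 28.0 TPM untreated and 78.3, 77.5 and 77.5 TPM after r-CRMP2. The summed level of 10 fibroblast markers was 263 to 301 TPM in the untreated group and 191 to 204 TPM in the r-CRMP2 group, of which COL1A1 alone gave 159.5, 191 and 167 TPM and 109, 94.2 and 108 TPM. Of the 9 fibroblast markers tested, 4 were higher (LUM, PDGFRA, COL1A2 and THY1) and 2 lower (COL1A1 and PDGFRB), with a median log2 fold change of 0.21, while library size alone gave 0 higher and 3 lower and a median of -0.10. The sum of 5 endothelial markers was 4.23 to 4.59 and 0.923 to 1.54 TPM. Of the fibroblast and endothelial markers, 1 and 2 were under 1 CPM in every library. The part of these shifts in the results was not tested.

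The inhibitors TIMP1 and TIMP2 and the proteases ADAMTS1 and MMP2, all abundant in these cells, were higher after r-CRMP2, while the scarcer aggrecan-cleaving ADAMTS4 and ADAMTS5 were lower, under TMM, RLE size factors and library size alone. Of the 45 genes, 30 had enough counts to be tested: 13 MMP, 13 ADAMTS and all 4 TIMP genes. At an adjusted p-value under 0.05 (edgeR's quasi-likelihood test, Benjamini-Hochberg adjustment over all 16222 genes), 10 were higher, 7 were lower and 13 were not called. Among all genes tested, 28.2% were higher and 30.1% were lower, so being called was common in these data. With library size alone, 5 of the 30 genes were higher and 10 were lower, against 13.4% and 52.1% of all genes. A log2 fold change of at least 1 in size was reached by 2 higher genes, MMP12 and MMP13 (background 5.12%), and by 3 lower genes, ADAMTS4, ADAMTS5 and ADAMTS6 (background 8.86%). With library size alone, no member was higher past both thresholds and 5 were lower. The 30 genes had a median log2 fold change of 0.13 under TMM, -0.18 under library size alone, and without untreated replicate 3 it was 0.09.

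By family, 3 of 4 TIMP genes were higher and none lower. Of 13 MMP genes, 5 were higher and 2 lower, and of 13 ADAMTS genes, 2 were higher and 5 lower. The median log2 fold changes were 0.52, 0.14 and -0.09 for the TIMP, MMP and ADAMTS genes, against -0.03 over all genes tested. With library size alone the counts of higher and lower genes were 2 and 0 for TIMP, 2 and 4 for MMP, and 1 and 6 for ADAMTS genes. Beside these counts, 28.2% of all genes tested were higher and 30.1% lower, and 13.4% and 52.1% with library size alone. A difference between the families was not tested. Fewer cells of a kind and less RNA per cell cannot be told apart in such bulk samples.

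**Figure D1:**
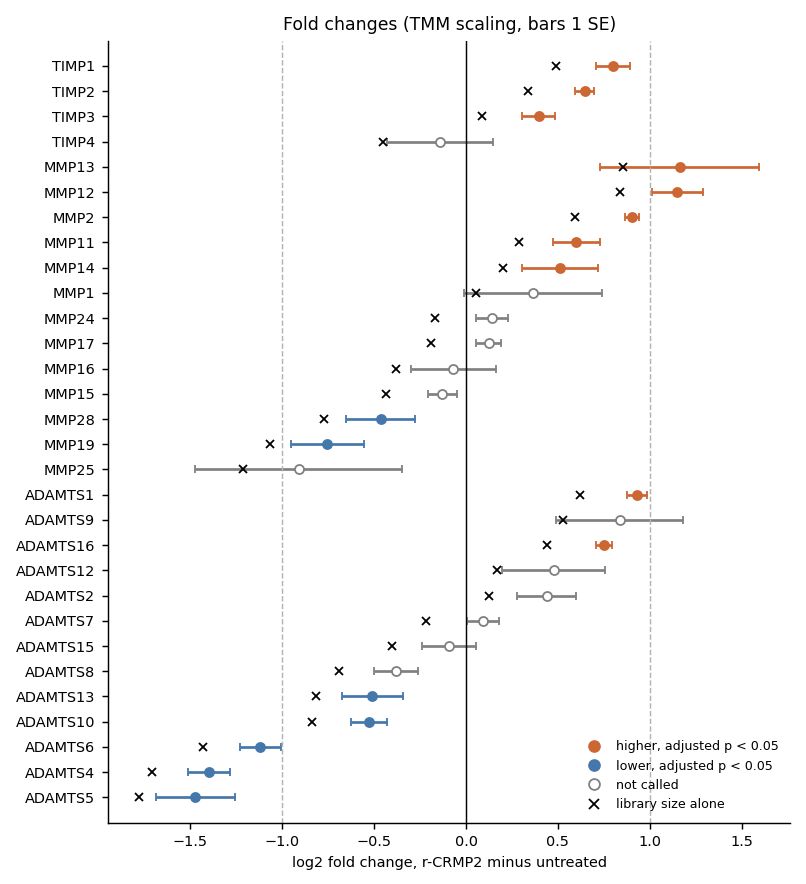
Log2 fold change (r-CRMP2 minus untreated, 3 libraries each) of the 30 genes tested, with points at the TMM-scaled value, bars of 1 standard error and crosses at the value with library size alone. The largest falls were ADAMTS5, ADAMTS4 and ADAMTS6, at -1.47, -1.40 and -1.12, and every cross lies to the left of its point.

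Levels of different genes were compared per length, as the deposited TPM, in which each count is divided by the gene's length and scaled to a fixed total. The 4 TIMP genes together gave 763, 694 and 675 TPM in untreated replicates 1, 2 and 3 and 943, 931 and 923 TPM in r-CRMP2 replicates 1, 2 and 3. The groups did not overlap, and the mean rose 1.31-fold, from 710.5 ± 46.5 to 933 ± 10.2 TPM. The 19 ADAMTS genes together gave 119, 130.1 and 124 TPM in the untreated libraries and 158, 157 and 160.5 TPM in the r-CRMP2 libraries, 1.27-fold more on average and again without overlap. The 22 MMP genes together gave 166, 168 and 161 TPM and 166, 154 and 159 TPM, and these groups overlapped. TPM carries no TMM correction, and under TMM the r-CRMP2 libraries stand higher against the untreated ones than in TPM. The differences and overlaps of these sums thus hold for the deposited TPM only, and TMM-scaled sums were not computed. A few genes carried each sum: TIMP1, TIMP2 and TIMP3 held at least 99.3% of the TIMP sum in every library, ADAMTS1, ADAMTS10 and ADAMTS7 at least 88.3% of the ADAMTS sum, and MMP15, MMP2 and MMP17 at least 75.8% of the MMP sum. The order of mean levels in untreated cells was TIMP1, TIMP2, ADAMTS1, MMP15, TIMP3 and MMP2, and after r-CRMP2 MMP2 stood before TIMP3. The TPM of TIMP3 and MMP2 after r-CRMP2 lay close together, at 45.9, 44.9 and 46.9 and 47.3, 46.0 and 49.98 in replicates 1, 2 and 3, and overlapped.

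**Figure D2:**
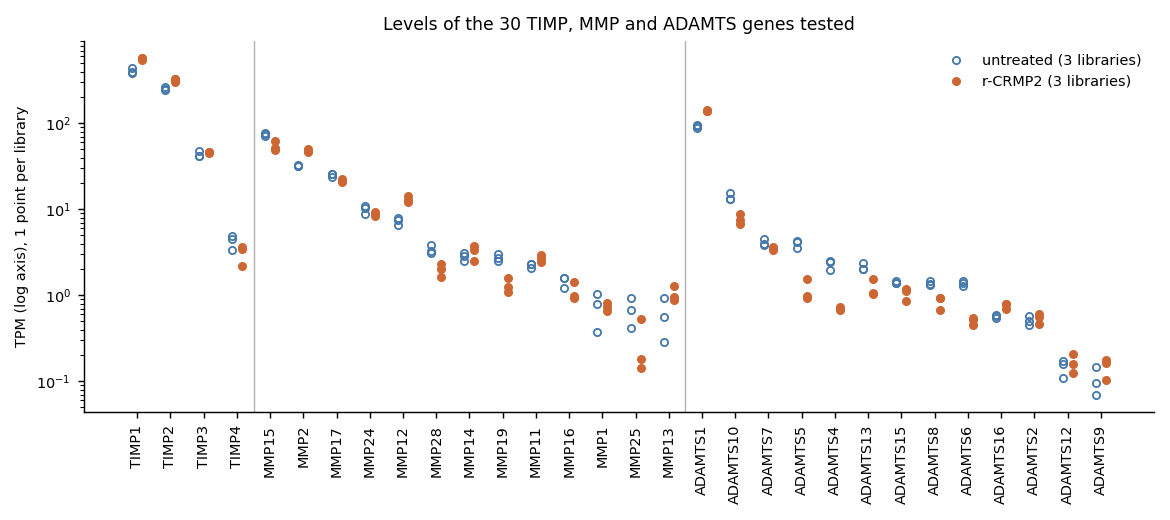
Deposited TPM of the 30 genes tested on a log axis, 1 point per library, with open points for untreated and filled points for r-CRMP2 samples and genes sorted by level within the TIMP, MMP and ADAMTS families. TIMP1 lies between 387 and 582 TPM, while ADAMTS9 and ADAMTS12 lie at the bottom, between 0.0687 and 0.208 TPM.

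Promoter sequences were available for 26 of the 45 genes, as 27 windows of 300 bases in RefSeq (GRCh38.p14, 250 bases before the start and 50 after it), since ADAMTS10 has a pair of starts. Because the study centred on HIF-1α, the windows were searched for the core of the hypoxia response element, written ACGTG or GCGTG, on both strands. It was found in 15 of the 27 windows (55.6%) and in 48.4% of all 35116 windows in the table. Of the called genes with a window, it was present in 3 of 4 higher genes (TIMP1, TIMP3 and MMP14, not MMP11) and in 3 of 3 lower genes (ADAMTS6, ADAMTS10 and ADAMTS13). The same letters were thus found in genes called in both directions. Several MMP genes are known to respond to FOS and JUN proteins through the AP-1 element, written TGAGTCA or TGACTCA. It was found in 1 of the 27 windows (3.70%), that of MMP7, and in 4.95% of all windows. Only these exact letters were searched, so variants such as TGAGTAA, which stands in the TIMP1 window below, were not counted. No window was available for MMP1, MMP3, MMP9, MMP12 or MMP13. The windows of 3 called genes are shown, 250 bases up to the start and 5′ to 3′ on the gene's strand, with the hypoxia core on either strand in capitals. They are the inhibitor TIMP1 (chrX:47582186-47582435, plus strand), the membrane protease MMP14 (chr14:22836335-22836584, plus strand) and ADAMTS6 (chr5:65481921-65482170, minus strand), so that genes called in opposite directions stand side by side.
TIMP1: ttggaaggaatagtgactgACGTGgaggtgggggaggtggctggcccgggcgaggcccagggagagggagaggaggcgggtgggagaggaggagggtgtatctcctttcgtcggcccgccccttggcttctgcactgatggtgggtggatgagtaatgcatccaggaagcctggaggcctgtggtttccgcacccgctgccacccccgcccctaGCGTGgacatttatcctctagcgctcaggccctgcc
MMP14: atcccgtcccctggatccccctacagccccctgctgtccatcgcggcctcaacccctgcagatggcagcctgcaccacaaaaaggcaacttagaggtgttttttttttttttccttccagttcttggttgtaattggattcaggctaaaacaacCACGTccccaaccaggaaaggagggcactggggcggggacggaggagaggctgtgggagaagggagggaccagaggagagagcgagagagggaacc
ADAMTS6: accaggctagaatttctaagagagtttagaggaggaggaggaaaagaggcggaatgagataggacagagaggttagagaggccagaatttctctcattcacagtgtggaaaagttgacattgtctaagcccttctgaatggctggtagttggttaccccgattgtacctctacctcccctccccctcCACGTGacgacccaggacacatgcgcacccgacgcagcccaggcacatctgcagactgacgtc
In TIMP1 the core began 231 and 36 bases before the start, and in MMP14 96 bases before it. In ADAMTS6 a match on each strand overlapped in the palindrome that began 63 bases before the start. The match is a description of the letters and does not show a bound site.

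TIMP1 and TIMP2 were the most abundant members, and 3 of the 4 TIMP genes were higher after r-CRMP2 (2 with library size alone). Values of 3 libraries are given in the order of replicates 1, 2 and 3, with the untreated group first. SE is the standard error of the difference in mean log2 CPM, taken from the spread between the replicates. It is not the error used in the edgeR test. TIMP1 (chromosome X, 47441690 to 47446190 in the deposited hg19 coordinates), a secreted inhibitor that also binds the MMP9 precursor, had 169, 147 and 145 CPM in untreated replicates 1, 2 and 3 and 258, 288 and 256 CPM in r-CRMP2 replicates 1, 2 and 3. All 3 r-CRMP2 libraries lay above the untreated ones. The mean rose 1.74-fold, from 154 ± 13.7 to 267 ± 18.3 CPM (mean ± SD, n = 3 per group), log2 fold change 0.80, SE 0.09, adjusted p = 1.9e-08 in the edgeR test. TIMP2 (chromosome 17, 76849059 to 76921472), which both inhibits MMP2 and takes part with MMP14 in activating it, had 406, 374 and 363 CPM in the untreated libraries and 585, 596 and 607 CPM in the r-CRMP2 libraries. The groups stood apart, and the mean rose 1.56-fold (log2 fold change 0.65, SE 0.05, adjusted p = 5.07e-08 in the edgeR test). The antisense row ENSG00000267601.1 overlaps 367 bases of TIMP2 and held 4432 counts against 68667 for TIMP2, with a log2 fold change of 0.61. The library kit does not mark strand, so reads of such pairs cannot be told apart.

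TIMP3 (chromosome 22, 33196802 to 33259028) had 110.3, 92.7 and 92.6 CPM in the untreated libraries and 124, 133 and 131 CPM in the r-CRMP2 libraries. It was higher with TMM by 0.40 on the log2 scale (SE 0.09, adjusted p = 0.000103 in the edgeR test), but not called with library size alone (0.08, adjusted p = 0.278), and its TPM overlapped between the groups. TIMP4 (chromosome 3, 12194568 to 12200851) had 3.34, 3.02 and 2.23 CPM and 2.81, 3.18 and 1.83 CPM, which overlapped (log2 fold change -0.14, SE 0.29, adjusted p = 0.62 in the edgeR test). Without r-CRMP2 replicate 3 the TIMP4 value was 0.07. The ratio of TIMP1 to TIMP3 TPM within a library, which no scaling alters, was 9.20, 9.46 and 9.38 in untreated replicates 1, 2 and 3 and 12.4, 13.0 and 11.7 in r-CRMP2 replicates 1, 2 and 3, and every r-CRMP2 library lay above the untreated ones. TIMP1, TIMP3 and TIMP4 lie inside the synapsin genes SYN1, SYN3 and SYN2 on the opposite strand, and these hosts held 70, 22 and 20 counts over the 6 libraries.

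**Figure D3:**
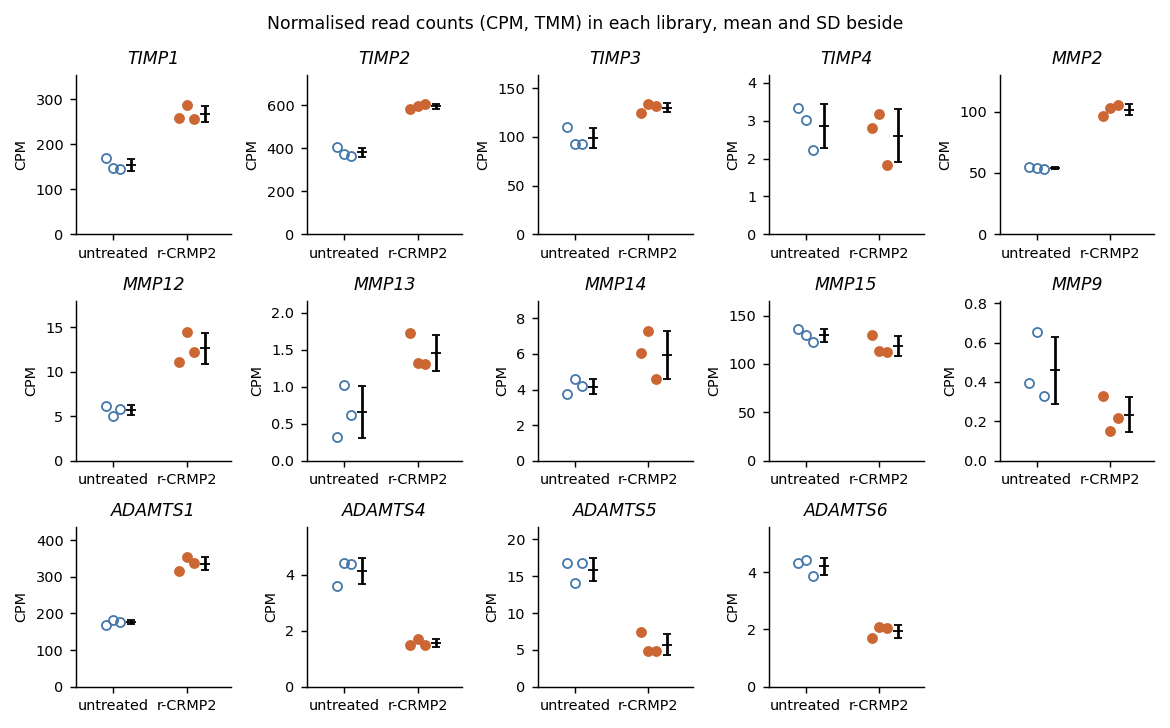
TMM-scaled CPM of 14 members in each library (points) with the group mean and SD (bars) beside, n = 3 in each group. In TIMP1, TIMP2, MMP2, MMP12 and ADAMTS1 all r-CRMP2 libraries lie above all untreated ones, and in ADAMTS4, ADAMTS5 and ADAMTS6 below them, while MMP15 and TIMP4 overlap.

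Of the gelatinases, MMP2 was well expressed and higher, and MMP9 was close to the floor. MMP2 (chromosome 16, 55512742 to 55540603), which cuts gelatin and type IV collagen, had 54.8, 54.2 and 53.6 CPM in untreated replicates 1, 2 and 3 and 96.4, 103 and 105 CPM in r-CRMP2 replicates 1, 2 and 3. The untreated libraries lay close together, and every r-CRMP2 library lay far above them. The mean rose 1.87-fold, from 54.2 ± 0.588 to 101 ± 4.48 CPM (mean ± SD, n = 3 per group), log2 fold change 0.90, SE 0.04, adjusted p = 6.61e-10 in the edgeR test. MMP9 (chromosome 20, 44637547 to 44645200) had 36 counts in the untreated group and 15 in the r-CRMP2 group and did not pass the low-count filter, and without the filter it was not called (log2 fold change -0.96, adjusted p = 0.283 in the edgeR test). Its CPM were 0.396, 0.652 and 0.329 and 0.328, 0.152 and 0.218, and the groups met at the lowest untreated and the highest r-CRMP2 library. An antisense row, ENSG00000204044.5, covers 3060 bases of MMP9 and held 444 counts with a log2 fold change of -0.70, so the MMP9 counts are uncertain. TIMP2 transcripts outnumbered those of MMP2 in every library, with a TPM ratio of 8.37, 7.79 and 7.64 in untreated cells and 6.85, 6.55 and 6.52 after r-CRMP2, where it was lower without overlap.

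On chromosome 11, 9 MMP genes lie in 435 kb (102391239 to 102826463), and only MMP1, MMP12 and MMP13 of them passed the low-count filter. MMP12 (102733460 to 102745764), macrophage elastase, had 6.18, 5.05 and 5.78 CPM in the untreated libraries and 11.1, 14.5 and 12.2 CPM in the r-CRMP2 libraries. The groups stood apart, and the mean rose 2.22-fold (log2 fold change 1.15, SE 0.14, adjusted p = 5.42e-07 in the edgeR test). With library size alone the MMP12 log2 fold change was 0.84 and still called. CD68, a macrophage and lysosomal marker, rose by 1.69 on the log2 scale in the same libraries, while PTPRC, LYZ, CD3E and MS4A1 were at or near 0. CD14, the other monocyte and macrophage marker of the list, had 10, 15 and 11 counts untreated and 3, 0 and 1 counts after r-CRMP2, the opposite direction to CD68. A part of such cells in the MMP12 value was not tested. MMP13 (102813721 to 102826463), a collagenase of cartilage and tumour stroma, was scarce, with 0.324, 1.02 and 0.621 CPM and 1.73, 1.31 and 1.31 CPM. The r-CRMP2 libraries were higher, 2.24-fold on average (log2 fold change 1.16, SE 0.43, adjusted p = 0.0119 in the edgeR test), but the call was lost without untreated replicate 1 (0.83, adjusted p = 0.0683) and with library size alone (0.85, adjusted p = 0.0577), and the TPM overlapped. The fibroblast collagenase MMP1 had 0.324, 0.856 and 0.658 CPM and 0.749, 0.910 and 0.697 CPM with overlap (log2 fold change 0.36, SE 0.37, adjusted p = 0.454 in the edgeR test). Promoter windows were available for 5 genes of this cluster (MMP7, MMP8, MMP10, MMP20 and MMP27), none of which passed the low-count filter, and not for MMP1, MMP12 or MMP13. These 5 windows had a median GC content of 36.3%, against 69.2% in the other 22 windows of members and 58.7% over all windows. TATAAA, searched on both strands after the values were seen, occurred in 4 of these 5 windows, in 7 of all 27 and in 11.5% of all windows in the table. The match began 30 and 31 bases before the start in MMP7 and MMP10, and 72 and 110 bases before it in MMP20 and MMP8. It describes the letters and does not show a working TATA box.

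Among the 6 membrane-type MMPs, which are anchored at the cell surface, only MMP14 was called with TMM, and with library size alone MMP14 was not called while MMP15 and MMP25 were lower. MMP14 (chromosome 14, 23305742 to 23316809), the main activator of the MMP2 precursor, had 3.74, 4.56 and 4.20 CPM in untreated replicates 1, 2 and 3 and 6.04, 7.28 and 4.57 CPM in r-CRMP2 replicates 1, 2 and 3. The lowest r-CRMP2 library lay only just above the highest untreated one, and the TPM of the groups overlapped. The mean rose 1.43-fold (log2 fold change 0.51, SE 0.21, adjusted p = 0.0175 in the edgeR test), but the call was lost with library size alone (0.20, adjusted p = 0.334), without untreated replicate 1 (0.44, adjusted p = 0.0643) and without r-CRMP2 replicate 2 (0.36, adjusted p = 0.0990). MMP15 (chromosome 16, 58059470 to 58080805), the most abundant MMP gene, had 136, 129 and 123 CPM and 130.3, 113 and 113 CPM, which overlapped (log2 fold change -0.13, SE 0.08, adjusted p = 0.123 in the edgeR test). MMP15 was lower with library size alone (-0.44, adjusted p = 5.46e-05) and without r-CRMP2 replicate 1 (-0.19, adjusted p = 0.0272), and its deposited TPM were 76.9, 75.1 and 70.8 against 62.1, 49.0 and 52.0, lower without overlap. The balance of the 2 leading MMP genes moved in either case: MMP2 to MMP15 TPM was 0.414, 0.432 and 0.449 in untreated cells and 0.762, 0.939 and 0.961 after r-CRMP2, 2.06-fold higher on average. The log2 fold changes of MMP16, MMP17 and MMP24 were -0.07, 0.12 and 0.14 and not called, and those of MMP17 and MMP24 turned to -0.19 and -0.17 with library size alone. MMP24-AS1, on the other strand, held 12413 counts against 2693 for MMP24 and rose by 0.79 on the log2 scale, with 669 bases of overlap. MMP25, a leukocyte enzyme in normal tissue, had 110 counts in all and a log2 fold change of -0.91 (adjusted p = 0.0932 in the edgeR test). Without r-CRMP2 replicate 1 the MMP25 value was -1.65 (adjusted p = 0.0108) and with library size alone -1.22 (adjusted p = 0.0289). MMP25-AS1 and ENSG00000261971.2 cover 7246 and 7373 bases of MMP25 on the other strand and fell by 0.96 and 0.85 on the log2 scale.

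The other MMP genes called were 1 rise and 2 falls. MMP11 (chromosome 22, 24115006 to 24126503), called a stromelysin though it cuts matrix poorly, went up from 2.10 ± 0.164 CPM to 3.20 ± 0.441 CPM (SD, 3 libraries per group), log2 fold change 0.60, SE 0.13, adjusted p = 0.017 in the edgeR test. The MMP11 call was lost with library size alone (0.29, adjusted p = 0.215), without untreated replicate 2 (0.54, adjusted p = 0.0620) and without r-CRMP2 replicate 2 (0.50, adjusted p = 0.0629). MMP19 (chromosome 12, 56229214 to 56236767) fell from 3.84 ± 0.325 to 2.28 ± 0.543 CPM (log2 fold change -0.76, SE 0.20, adjusted p = 0.00355 in the edgeR test). It shares 817 bases with TMEM198B on the other strand, which held 1402 counts against 450 and fell by 0.95 on the log2 scale. MMP28 (chromosome 17, 34083268 to 34122711), epilysin, fell from 4.45 ± 0.514 to 3.25 ± 0.650 CPM (log2 fold change -0.46, SE 0.19, adjusted p = 0.0374 in the edgeR test). The MMP28 call was lost in DESeq2 (adjusted p = 0.0740) and without untreated replicate 1 or 3 or r-CRMP2 replicate 1 or 3, with log2 fold changes of -0.48, -0.37, -0.43 and -0.33 and adjusted p of 0.0576, 0.155, 0.0845 and 0.179.

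Of 6 tested ADAMTS genes that cut proteoglycans, 1 was higher, 2 were lower and 3 were not called. With library size alone, 1 was higher and 3 were lower. The shares over all genes tested were 28.2% higher and 30.1% lower, and 13.4% and 52.1% with library size alone. The counts thus do not set this group apart. ADAMTS1 (chromosome 21, 28208606 to 28217728), which cuts versican and aggrecan and is known as an inhibitor of angiogenesis, had 169, 182 and 177 CPM in untreated replicates 1, 2 and 3 and 317, 353 and 338 CPM in r-CRMP2 replicates 1, 2 and 3. The groups stood apart, and the mean rose 1.91-fold, from 176 ± 6.27 to 336 ± 18.2 CPM (mean ± SD, n = 3 per group), log2 fold change 0.93, SE 0.05, adjusted p = 3.99e-10 in the edgeR test. ADAMTS5 (chromosome 21, 28290231 to 28339439), aggrecanase-2, had 16.8, 14.1 and 16.7 CPM in the untreated libraries and 7.40, 4.90 and 4.83 CPM in the r-CRMP2 libraries. Each r-CRMP2 library lay below every untreated one, and the mean was 2.78-fold lower, from 15.9 ± 1.55 to 5.71 ± 1.46 CPM (mean ± SD, n = 3 per group), log2 fold change -1.47, SE 0.22, adjusted p = 6.47e-08 in the edgeR test. ADAMTS4 (chromosome 1, 161159519 to 161168843), aggrecanase-1, had 3.60, 4.40 and 4.39 CPM in the untreated libraries and 1.498, 1.72 and 1.48 CPM in the r-CRMP2 libraries. Again the groups did not overlap, and the mean was 2.63-fold lower (log2 fold change -1.40, SE 0.12, adjusted p = 8.55e-06 in the edgeR test).

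ADAMTS1 and ADAMTS5 are neighbours on the same strand, with 72.5 kb between them, and were called in opposite directions under TMM, RLE size factors and library size alone. The ratio of ADAMTS1 to ADAMTS5 TPM, free of scaling, was 21.0, 26.9 and 22.0 in untreated replicates 1, 2 and 3 and 88.9, 149 and 145 in r-CRMP2 replicates 1, 2 and 3, 5.49-fold higher on average. That of ADAMTS1 to ADAMTS4 was 44.0, 38.6 and 37.7 and 198, 192 and 213, 5.01-fold higher on average. Both ratios stood apart between the groups in all 6 libraries. ADAMTS8 and ADAMTS15, a second pair of neighbours 19.98 kb apart on chromosome 11, were not called, at -0.38 and -0.09, but ADAMTS8 was lower with library size alone (-0.69, adjusted p = 0.0133 in the edgeR test) and ADAMTS15 was at 0.05 without r-CRMP2 replicate 3. ADAMTS9 was under 1 CPM in every library and not called (log2 fold change 0.84, adjusted p = 0.132).

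Of 6 tested ADAMTS genes with other or less known substrates, 3 fell and 1 rose, and 3 fell and 0 rose with library size alone. Beside this, 30.1% of all genes tested were lower and 28.2% higher, and 52.1% and 13.4% with library size alone. ADAMTS6 (chromosome 5, 64444563 to 64777747), a close relative of ADAMTS10, had 4.31, 4.44 and 3.87 CPM in the untreated libraries and 1.69, 2.07 and 2.05 CPM in the r-CRMP2 libraries. The groups did not overlap, and the mean was 2.17-fold lower (log2 fold change -1.12, SE 0.11, adjusted p = 5.34e-05 in the edgeR test). ADAMTS10 (chromosome 19, 8645124 to 8675620), which acts with fibrillin microfibrils, fell from 24.7 ± 2.04 to 17.1 ± 1.49 CPM (log2 fold change -0.53, SE 0.10, adjusted p = 7.22e-05 in the edgeR test). ADAMTS13 (chromosome 9, 136279459 to 136324525), the von Willebrand factor protease, fell from 4.63 ± 0.371 to 3.25 ± 0.636 CPM (log2 fold change -0.51, SE 0.17, adjusted p = 0.0198 in the edgeR test). It shares 3834 bases with REXO4 on the other strand, which held 7343 counts against 576 and fell by 0.46 on the log2 scale, and the ADAMTS13 call was lost without untreated replicate 2, r-CRMP2 replicate 2 or r-CRMP2 replicate 3 (-0.45, -0.44 and -0.41, adjusted p = 0.0815, 0.0623 and 0.0939). ADAMTS16 (chromosome 5, 5140443 to 5320415) rose from 1.15 ± 0.0506 to 1.95 ± 0.0684 CPM (log2 fold change 0.75, SE 0.04, adjusted p = 0.0163 in the edgeR test), with the call lost under library size alone (0.44, adjusted p = 0.130) and without untreated replicate 3 (0.72, adjusted p = 0.0533). ADAMTS7 and ADAMTS12, which both cut the cartilage protein COMP, were not called at 0.09 and 0.48, and ADAMTS7 turned to -0.22 with library size alone. The 3 pseudogene rows of ADAMTS7 held 23 counts in all. ADAMTS2, the procollagen N-proteinase, was at 0.44 (adjusted p = 0.137).

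The 15 members that did not pass the low-count filter were MMP3, MMP7, MMP8, MMP9, MMP10, MMP20, MMP21, MMP26, MMP27, ADAMTS3, ADAMTS14, ADAMTS17, ADAMTS18, ADAMTS19 and ADAMTS20. They include both matrilysins (MMP7 and MMP26) and 2 of the 3 stromelysins. None had more than 16 counts in 1 library or a level above 0.988 TPM, and the highest total over the 6 libraries was the 51 counts of MMP9. MMP26 had no count in any library, where a count of 0 allows up to between 0.108 and 0.152 CPM on the TMM scale. These limits cover counting error only. When every gene with a count was fitted by edgeR without the filter, 14 of the 15 could be fitted and 0 passed an adjusted p of 0.05, while MMP7 and MMP21 had an unadjusted p under it. MMP7 had 9 counts in the untreated group and 22 in the r-CRMP2 group (adjusted p = 0.144), and MMP21 had 8 and 0 (adjusted p = 0.083).

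In a list of 19 genes that activate, inhibit or clear these proteases, 16 were tested, of which 8 were higher and 3 lower, and 6 and 4 with library size alone. Over all genes tested, 28.2% were higher and 30.1% lower, and 13.4% and 52.1% with library size alone. The list's median log2 fold change was 0.27, and -0.04 with library size alone. PLAUR, the urokinase receptor, had 117, 98.5 and 93.5 CPM in untreated replicates 1, 2 and 3 and 295, 365 and 334 CPM in r-CRMP2 replicates 1, 2 and 3. Its groups did not overlap (log2 fold change 1.69, SE 0.13, adjusted p = 8.6e-12 in the edgeR test). LRP1, the receptor that takes up TIMP and protease complexes, rose by 1.10 on the log2 scale. Urokinase itself, PLAU, was at 0.15 (adjusted p = 0.0562 in the edgeR test). SPOCK2, a testican, fell by 1.30 from 1.89 ± 0.335 CPM. BSG (CD147), known as an inducer of MMP expression, rose by 0.95 on the log2 scale, with means of 1262 ± 32.5 CPM untreated and 2438 ± 139 CPM after r-CRMP2 (SD, n = 3 per group). RECK, a membrane-bound inhibitor of MMP2, MMP9 and MMP14, was at 0.11 (adjusted p = 0.314) and turned to -0.20 with library size alone. FURIN, which activates the membrane-type MMPs, was not called at -0.11 (adjusted p = 0.161) and was lower with library size alone (-0.42, adjusted p = 1.08e-05).

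The substrates held 17 tested genes of 21, of which 9 were higher and 3 lower, and 7 and 5 with library size alone, with medians of 0.27 and -0.04. The background for the substrates, the ADAMTS-like list and the ADAM and astacin list was all genes tested. Under TMM, 28.2% of that background rose and 30.1% fell. When only library size was used, its shares were 13.4% up and 52.1% down. FN1, fibronectin, rose by 1.65 on the log2 scale, with means of 525 ± 30.5 CPM untreated and 1647 ± 65.0 CPM after r-CRMP2 (SD, n = 3 per group). The basement membrane genes COL4A1 and COL4A2 rose by 0.70 and 0.68. LAMA1 had 7.08, 10.2 and 11.5 CPM in the untreated libraries and 3.18, 2.63 and 1.70 CPM in the r-CRMP2 libraries, a fall of 1.94 on the log2 scale. The proteoglycans that ADAMTS4 and ADAMTS5 cut were scarce: ACAN (aggrecan) and NCAN were not tested, VCAN (versican) was at 0.04 (adjusted p = 0.853 in the edgeR test), and BCAN (brevican) fell by 1.21, with means of 10.5 ± 0.323 CPM untreated and 4.53 ± 1.19 CPM after r-CRMP2 (SD, n = 3 per group). The ADAMTS-like list, whose 6 tested genes resemble ADAMTS but have no protease domain, had 2 higher and 1 lower, and 1 and 2 with library size alone, with medians of -0.02 and -0.33. The ADAM and astacin list had 5 higher and 1 lower of 10 tested, and 3 and 3 with library size alone, with medians of 0.26 and -0.05. Among them BMP1, the procollagen C-proteinase, rose by 0.68 and its relative TLL1 fell by 0.59.

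AP-1 and ETS transcription factors, known regulators of MMP and TIMP genes, had 9 of 11 higher and 1 lower (7 and 1 with library size alone). Of all genes tested, 28.2% were higher and 30.1% lower, and 13.4% and 52.1% with library size alone. The list's median log2 fold change was 0.68 against -0.03 over all genes tested. This list, like the others, was chosen with earlier results of these data known. FOSL1 had 15.2, 17.3 and 13.5 CPM in the untreated libraries and 77.9, 98.8 and 96.3 CPM in the r-CRMP2 libraries and rose by 2.57 on the log2 scale (SE 0.15, adjusted p = 2.5e-13 in the edgeR test). JUN had 43.9, 88.0 and 97.5 CPM and 125, 201 and 185 CPM, a wide spread in both groups, and rose by 1.16 (SE 0.42). FOSB had 6.18, 10.6 and 12.8 CPM and 3.84, 5.00 and 3.44 CPM and fell by 1.27. The levels of these factors are given beside those of the proteases, and a link between them was not tested.

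**Figure D4:**
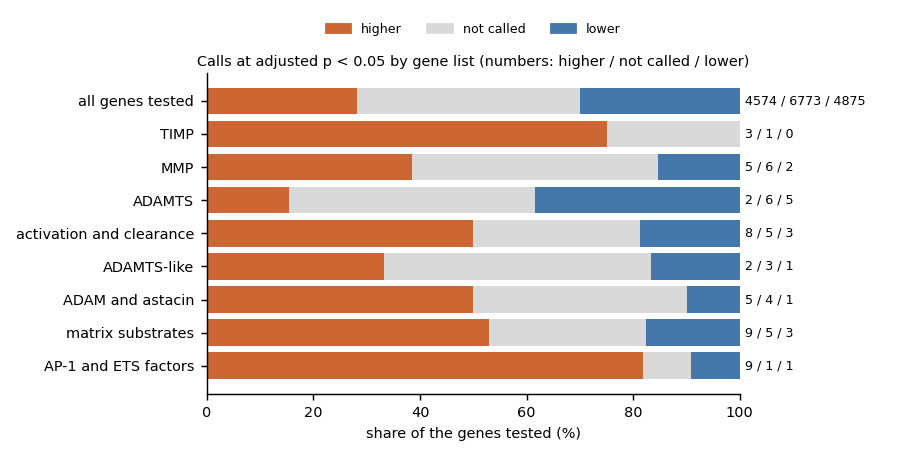
Share of the tested genes of each list that were higher, lower or not called at an adjusted p under 0.05 (edgeR, TMM scaling), with the numbers of higher, not called and lower genes at the right. The TIMP genes and the AP-1 and ETS factors have more higher than lower genes, the ADAMTS genes have 5 lower and 2 higher, and all genes tested have 28.2% higher and 30.1% lower.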

How the data were processed

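Polyadenylated RNA of 6 A2780 samples (3 untreated, 3 r-CRMP2) was sequenced in pairs of 150 bases with a kit that does not mark strand. The authors deposited raw counts for 44591 genes in each library and TPM, which matched a recalculation from count and gene length to within 4.72e-06. FastQC, HISAT2, DESeq2 and the build hg19 are named in the submitters' processing notes. The counting tool, annotation and strand setting are not given in the sources used here.

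Differences were tested in R 4.3.3 by edgeR (4.0.16, with limma 3.58.1): its quasi-likelihood test was run on TMM-normalised counts of the 16222 genes that passed its low-count filter, and p-values were adjusted over all of them by Benjamini-Hochberg. Thresholds were 0.05 for the adjusted p and 1 for the log2 fold change. A standard error (SE) is that of the difference in log2 CPM (prior count 2) between the groups' replicates. The deposited TPM served only for levels and ratios. The test was also run on simulated counts, drawn after the main fit from its means and dispersions, and the outcome is not given here. Each library held 21888530 to 25711353 counts, and intervals or floors (3 counts for a count of 0) cover counting error only.

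The members and all lists were chosen with earlier results of these data known. Genes described library by library are those past both thresholds, the TIMP genes, MMP2, MMP9, MMP14 and the 5 members with the highest mean TPM. Other members are named with values if called, otherwise by value or count. In the other lists, up to 3 rises and 3 falls past both thresholds, RECK, FURIN and BSG are named. A gene that meets this rule is not reported here. CD68, CD14, LUM, PDGFRA, PDGFRB, COL1A1, COL1A2, THY1, PTPRC, LYZ, CD3E, MS4A1, KRT8, KRT18, KRT19, EPCAM, PAX8, MUC16, CDH1, WT1, PLAU, COL4A1, COL4A2, ACAN, NCAN, VCAN, BMP1, TLL1 and the overlapping genes were added after their values were seen. Alternatives were DESeq2 (1.42.0), RLE size factors, scaling by library size alone, testing every gene with a count, requiring 10 counts in each sample, the replicate number as a block, and leaving out each library in turn. A search for protein motifs was planned, but no protein sequences were used here.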

Additional observations from a re-analysis of the deposited data

How the results depend on the processing

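Over 512 values, 43 named genes under up to 12 alternatives, 479 kept their direction and side of the threshold, 19 lost the call (7 genes), 6 gained it (4 genes) and 8 changed sign (7 genes). Library size alone moved most: 2171 genes were higher and 8449 lower over all genes, 5 members were higher, 0 higher and 5 lower past both thresholds, and the median of the members was -0.18. In the other lists it gave 1 higher and 2 lower ADAMTS-like genes, 3 and 3 ADAM and astacin genes and 5 lower substrates, and ADAMTS7, MMP17, MMP24 and RECK turned to -0.22, -0.19, -0.17 and -0.20. It leaves out the TMM factors and so lowers every fold change. Without a low-count filter the median was 0.0410, with more scarce members in it. With at least 10 counts in every sample, 1 member was higher past both thresholds, since MMP13, MMP1, MMP25 and ADAMTS9 were not tested there. Leaving out each library in turn gave 1 to 2 members higher past both thresholds, medians of 0.0854 to 0.180 and a TIMP ratio of 1.28 to 1.36. Without r-CRMP2 replicate 3 the log2 fold changes of TIMP4 and ADAMTS15 were above 0, and so was that of MMP16 without untreated replicate 1 or r-CRMP2 replicate 1, and the cause was not tested. Leaving out 1 library at a time, TIMP4 lay between -0.30 and 0.0696, ADAMTS15 between -0.17 and 0.0498, and MMP16 between -0.27 and 0.0747. A block for the replicate number gave 10 higher and 7 lower members, and no call of a member changed. The deviations of same-numbered libraries had correlations across genes of -0.02, 0.0038 and -0.03. Such values over all genes cannot show whether same-numbered libraries share more than a number. The 15 members with at most 16 counts in any library had no call with or without the low-count filter, and 3 libraries per group limit the precision.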
